A study of Mus musculus with 16 samples.

Results

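The genes described here encode 8 channel subunits of the skeletal muscle membrane: the sodium channel subunits *Scn4a* and *Scn4b*, the chloride channel *Clcn1*, the potassium channels *Kcnn3* and *Kcnj2*, and the calcium channel subunits *Cacna1s*, *Cacnb1* and *Cacng1*. They were taken by gene symbol, 8 of the 24421 genes in the count tables, and all 8 had enough reads to be tested in every comparison. Poly(A) RNA was sequenced from gastrocnemius (Gas), a muscle in which fast-twitch fibers prevail, and soleus (Sol), in which slow-twitch fibers prevail, of male C57BL/6 mice given tamoxifen at 8 weeks of age. WT mice carried floxed *Lsd1* alleles (*Lsd1* is listed as *Kdm1a*) and no Cre. LSD1-mKO mice carried the same floxed alleles and a tamoxifen-inducible CreERT2 driven by the human ACTA1 promoter, which is active in muscle fibers. Every group was given 75 mg/kg of tamoxifen for 5 days and 1 mg/kg of dexamethasone (Dex), a synthetic glucocorticoid, for 7 days, so that no muscle without Dex was measured and the controls lacked the Cre transgene. The 16 libraries comprised 3 of WT Gas, 5 of LSD1-mKO Gas, 3 of WT Sol and 5 of LSD1-mKO Sol. The comparisons asked how the loss of the histone demethylase LSD1 in muscle fibers affected these transcripts in each muscle under Dex.

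A muscle fiber fires when Nav1.4, the product of *Scn4a*, opens and lets sodium in. The action potential then spreads along the surface and the transverse tubules, where the dihydropyridine receptor senses the voltage and triggers calcium release through the ryanodine receptor. This receptor is a voltage-gated calcium channel built on the pore subunit of *Cacna1s* with the beta subunit of *Cacnb1* and the gamma subunit of *Cacng1*. Chloride conductance through ClC-1 (*Clcn1*) and inward-rectifier potassium current through Kir2.1 (*Kcnj2*) hold the membrane at rest and prevent repetitive firing. SK3 (*Kcnn3*), a calcium-activated potassium channel of small conductance, is known from developing and denervated muscle fibers and is scarce in innervated adult fibers.

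The total gene counts were 11009622 to 21594751 reads in WT Gas, 10130415 to 21200899 in LSD1-mKO Gas, 13917962 to 17982470 in WT Sol and 16814210 to 24576377 in LSD1-mKO Sol. Levels are given as CPM, the reads of a gene scaled to library size, with library sizes scaled by TMM over the 16 libraries. The targeted gene *Kdm1a* was lower in every LSD1-mKO library, with a log2 fold change of -1.56 in Gas (adjusted p 0.0177, edgeR) and -1.66 in Sol (adjusted p 0.000574). Slow fiber markers (*Myh7*, *Tnnt1*, *Tnni1*, *Tnnc1*, *Myl2*, *Myl3*) summed to at least 19627 CPM in each Sol library and to at most 2324 CPM in each Gas library. WT Gas 3 stood apart from the other Gas libraries. It had the smallest TMM factor (0.801), the highest mean level of ribosomal protein genes (8.60 on the log2 CPM scale, with 7.17 to 7.97 in the other Gas libraries) and the most negative slope of level on transcript length (-0.35 log2 units per log2 of length). WT Sol 2 and LSD1-mKO Gas 5 showed slopes of -0.24 and -0.20. WT Gas 3 was the lowest of the 8 Gas libraries for 4 of the 8 channel genes, *Scn4a*, *Clcn1*, *Kcnn3* and *Cacna1s*. Fold changes that moved most without WT Gas 3 or WT Sol 2 are given with and without them. Nothing in the labels beyond the numbers in the titles says that libraries came from separate mice, so p-values measure the spread between these libraries.

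**Figure D1:**
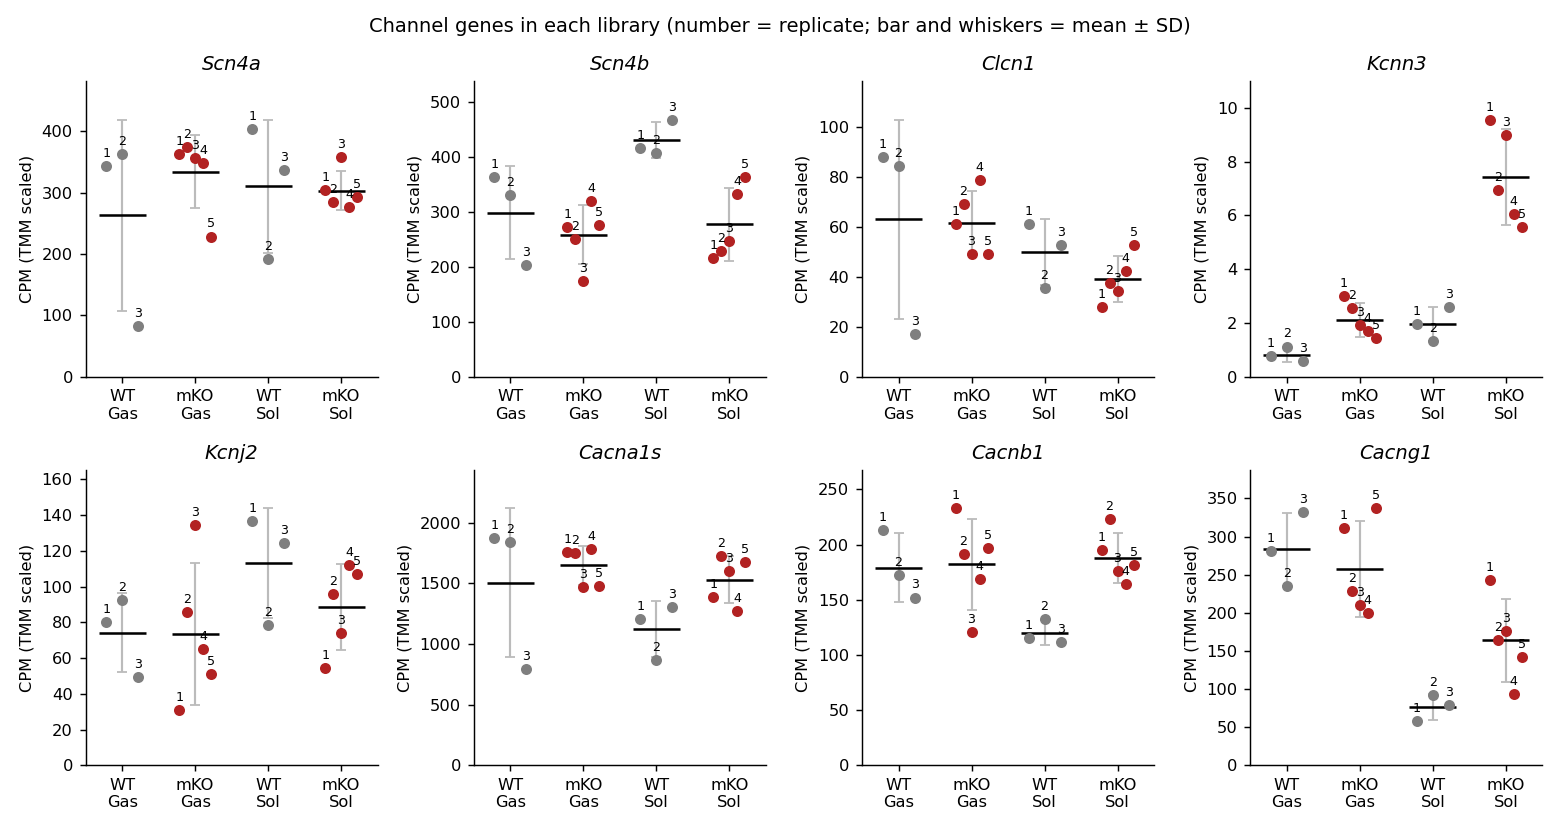
Level of each channel gene in every library, in CPM with TMM-scaled library sizes on linear axes that start at 0. Grey points are WT and red points LSD1-mKO (mKO), numbers are replicates, and black lines with grey whiskers are the mean ± SD. The 5 LSD1-mKO points of *Kcnn3* lie above the 3 WT points in both muscles, and WT Gas 3 is the lowest Gas point for *Scn4a*, *Clcn1*, *Kcnn3* and *Cacna1s*.

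In Sol, *Kcnn3* was the channel gene that changed between the genotypes: its mean level rose to 7.43 ± 1.78 CPM (SD, n = 5) with the knockout, where WT held 1.97 ± 0.635 CPM (SD, n = 3). Of the 8 genes, 1 was called higher and 0 were called lower in Sol, at an adjusted p under 0.05 (edgeR, quasi-likelihood test). Over all genes tested in Sol, 0.967% were called, 0.787% as higher and 0.18% as lower. In *Cacnb1* and *Cacng1* every LSD1-mKO Sol library lay above every WT Sol library, and in *Scn4b* every LSD1-mKO Sol library lay below, but none of the 3 passed the adjusted test. With *Kcnn3*, the groups did not overlap for 4 of the 8 genes in Sol, which was the case for 10.8% of all genes tested (6.33% higher and 4.44% lower). In Gas, 0 of the 8 genes were called, where 0.0307% of all genes tested were called, and *Kcnn3* alone had groups without overlap (6.95% of all genes, 4.13% higher). The unadjusted p was under 0.05 for 1 of the 8 genes in Gas and for 5 in Sol, where 9.06% and 15.5% of all genes had such a p. DESeq2 called 0 of the 8 in Gas and 4 in Sol (*Kcnn3*, *Cacnb1*, *Cacng1* and *Scn4b*), beside 132 of all 13040 genes in Gas and 605 of all 13342 in Sol. Limma voom called 1 (*Kcnn3*) and the same 4, beside 340 and 730 of all genes. The median log2 fold change of the 8 genes was 0.01 in Gas and 0.20 in Sol, and that of all genes tested was 0.01 and -0.01. Since these were whole muscles, fewer fibers with a transcript and less transcript per fiber cannot be told apart.

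**Figure D2:**
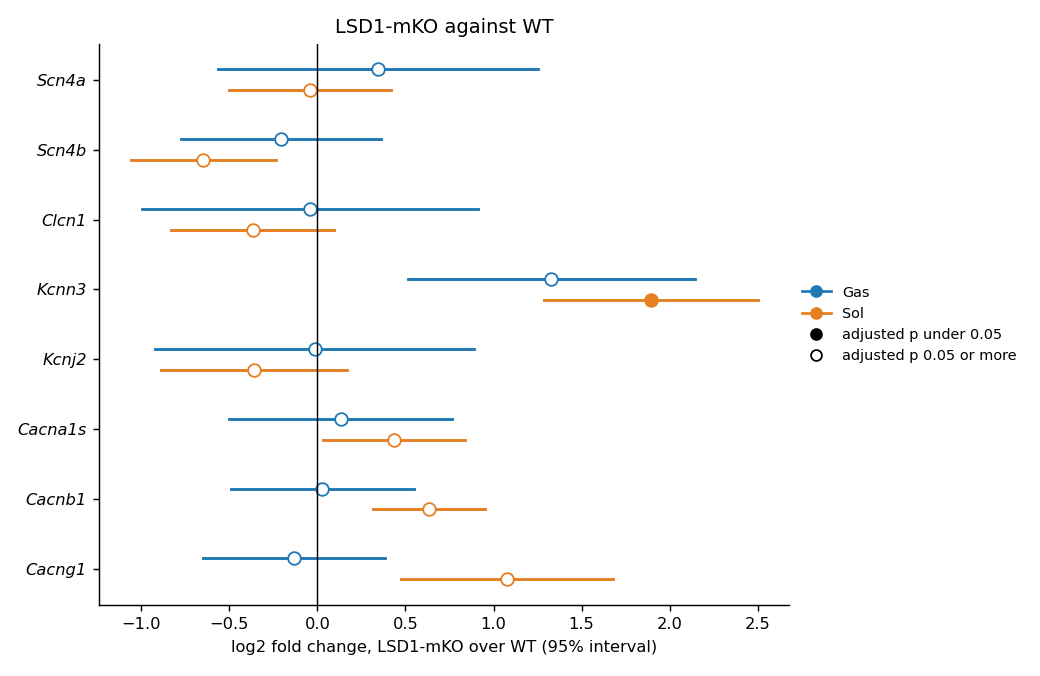
Log2 fold change of LSD1-mKO over WT for each channel gene in Gas (blue) and Sol (orange), with 95% intervals from the quasi-likelihood fit. The filled point is the one gene past the adjusted threshold, *Kcnn3* in Sol at 1.89. The intervals of *Cacnb1*, *Cacng1*, *Scn4b* and *Cacna1s* in Sol and of *Kcnn3* in Gas leave out 0 without passing that threshold.

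*Kcnn3* lies on chromosome 3 (89520164 to 89675132, plus strand; mm10). Its level in Sol was 1.98, 1.33 and 2.60 CPM in the 3 WT libraries and 9.57, 6.95, 9.01, 6.05 and 5.56 CPM in the 5 LSD1-mKO libraries. The lowest LSD1-mKO library was thus above the highest WT library. The log2 fold change was 1.89 (SE 0.276, 95% interval 1.29 to 2.50, adjusted p 0.0155, edgeR), a fold of 3.71. In Gas the 3 WT libraries held 0.785, 1.12 and 0.567 CPM and the 5 LSD1-mKO libraries 2.99, 2.55, 1.92, 1.72 and 1.43 CPM. Here too the genotypes did not overlap, with a log2 fold change of 1.33 (SE 0.367, 95% interval 0.51 to 2.14, adjusted p 0.387, edgeR). The difference of the effect between the muscles was 0.58 (SE 0.45, 95% interval -0.37 to 1.53, adjusted p 0.987, edgeR), so that a larger response in Sol was not shown.

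These values rested on few reads. *Kcnn3* had 5 to 19 reads in WT Gas, 18 to 64 in LSD1-mKO Gas, 19 to 45 in WT Sol and 106 to 279 in LSD1-mKO Sol. The exact 95% Poisson interval of WT Gas 3, from 5 reads, was 0.184 to 1.32 CPM, and that of LSD1-mKO Gas 5, from 25 reads, was 0.928 to 2.12 CPM. For WT Gas 2, the highest WT Gas library, it was 0.676 to 1.75 CPM from 19 reads. In Gas the intervals of the highest WT and the lowest LSD1-mKO library thus overlap. In Sol the interval of the highest WT library was 1.90 to 3.48 CPM and that of the lowest LSD1-mKO library 4.55 to 6.73 CPM, which do not overlap. Such intervals cover counting error only. The call in Sol was lost when WT Sol 1 or WT Sol 2 was left out (log2 fold changes 1.89 and 1.70, adjusted p 0.0644 and 0.0617, edgeR) and was kept in the other 6 fits that left out a library. Under the 10 other settings it was kept, with adjusted p from 3.71e-08 to 0.0159. In Gas, *Kcnn3* passed the threshold under limma voom with library weights (log2 fold change 1.35, adjusted p 0.0352), and the adjusted p of the 10 settings ran from 0.0352 to 0.455. Schwann cell markers, which would come with nerve branches, summed to 46.7 to 134 CPM in WT Sol and 74.8 to 106 CPM in LSD1-mKO Sol, and satellite cell markers to 5.67 to 6.84 and 6.56 to 8.54 CPM, and their part in the result was not tested.

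The stretch before the start of *Kcnn3* is shown with those of *Clcn1* and *Cacna1s*, a pair of channel genes whose stretches hold E-boxes. E-boxes, the sites of myogenic factors such as MyoD, are a common feature of muscle promoters. Counts for the other genes with such a stretch, some of them without an E-box, follow the sequences. RefSeq promoter windows on GRCm38.p6, the build of mm10, were found for 7 of the 8 genes. Each sequence is the 250 bases before the RefSeq start, 5′ to 3′ on the strand of the gene, with every CANNTG E-box in capitals. The gene coordinates in this report are from GENCODE. The RefSeq starts of *Cacna1s*, *Scn4a*, *Scn4b* and *Cacnb1* lie inside those spans, so their windows run partly or wholly into the genes as located here.
Kcnn3 (chr3:89519914-89520163, plus strand): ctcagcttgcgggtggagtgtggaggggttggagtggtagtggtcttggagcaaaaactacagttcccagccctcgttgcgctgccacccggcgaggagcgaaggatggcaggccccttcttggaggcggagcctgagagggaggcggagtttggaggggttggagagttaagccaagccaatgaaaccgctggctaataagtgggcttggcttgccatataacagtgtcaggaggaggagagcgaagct
Clcn1 (chr6:42286435-42286684, plus strand): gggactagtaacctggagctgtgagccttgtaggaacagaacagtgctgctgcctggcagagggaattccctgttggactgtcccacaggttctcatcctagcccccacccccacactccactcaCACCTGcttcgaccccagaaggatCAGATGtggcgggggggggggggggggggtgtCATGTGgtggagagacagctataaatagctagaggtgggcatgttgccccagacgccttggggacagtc
Cacna1s (chr1:136052561-136052810, plus strand): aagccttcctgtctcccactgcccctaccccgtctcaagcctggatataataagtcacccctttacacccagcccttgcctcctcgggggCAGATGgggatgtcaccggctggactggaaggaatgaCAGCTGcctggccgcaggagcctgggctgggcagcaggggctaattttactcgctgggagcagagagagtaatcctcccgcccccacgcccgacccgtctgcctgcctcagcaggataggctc
Counted in these RefSeq windows on either strand, CANNTG occurred 0 times before *Kcnn3*, *Scn4a*, *Scn4b* and the upstream start of *Cacnb1*, 3 times before *Clcn1*, 2 times before *Cacna1s* and *Kcnj2*, and 1 time before the downstream start of *Cacnb1*. The motif was present in 66.2% of all 32841 windows of this length. The E-box form CAGCTG, found in 13% of windows, occurred 1 time each before *Cacna1s* and *Kcnj2*. The MEF2 motif was found in 2.92% of windows and, of these genes, before *Clcn1*, where it overlaps a TATAAA. The letters of a glucocorticoid receptor core, AGAACA, were found in 16.1% of windows and occurred 1 time each before *Scn4b* and *Clcn1*. GC content was 58.8% before *Kcnn3* and 73.2% before the upstream start of *Cacnb1*, with a median of 52.4% over all windows. Matches and their absence in these windows are descriptions of the letters and say nothing of factor binding.

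Among the calcium channel subunits, the accessory subunits *Cacng1* and *Cacnb1* had the largest differences between the genotypes, in Sol. *Cacng1*, whose gamma subunit limits the calcium current of the channel, lies on chromosome 11 (107703218 to 107716522, minus strand). It had 58.4, 92.8 and 79.4 CPM in WT Sol and 242, 165, 177, 93.5 and 142 CPM in LSD1-mKO Sol. The lowest LSD1-mKO library, LSD1-mKO Sol 4, exceeded the highest WT library by less than 1 CPM, and the other 4 stood well above. With all 8 Sol libraries the log2 fold change was 1.08 (SE 0.274, 95% interval 0.48 to 1.68, adjusted p 0.0921, edgeR), a fold of 2.11 that missed the threshold. In Gas the 3 WT libraries had 281, 236 and 332 CPM and the 5 LSD1-mKO libraries 312, 229, 210, 200 and 337 CPM. These overlapped, with a log2 fold change of -0.13 (SE 0.232, 95% interval -0.65 to 0.38, edgeR, adjusted p 0.836). The effect in Sol exceeded that in Gas by 1.23 on the log2 scale (SE 0.372, 95% interval 0.44 to 2.01), with an unadjusted p of 0.00422 in edgeR, and this difference did not pass the correction over all genes (adjusted p 0.707). None of the 13749 genes passed that test (0%), while 671 (4.88%) had an unadjusted p under 0.05 and DESeq2 called 21 genes, none of them among the 8.

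*Cacnb1* encodes the beta subunit that carries the dihydropyridine receptor to the triad (chromosome 11, 98001508 to 98023034, minus strand). In Sol it had 116, 133 and 112 CPM in WT and 195, 223, 176, 165 and 181 CPM in LSD1-mKO. All 5 LSD1-mKO libraries lay above all 3 WT libraries. This was a log2 fold change of 0.63 (SE 0.144, 95% interval 0.32 to 0.95, adjusted p 0.0658, edgeR). In Gas the WT libraries had 213, 172 and 152 CPM and the LSD1-mKO libraries 233, 191, 121, 169 and 197 CPM, a log2 fold change of 0.03 (95% interval -0.49 to 0.55). The genotypes overlapped there throughout. The difference of the effect between the muscles was 0.62 (SE 0.268, unadjusted p 0.0324, adjusted p 0.987, edgeR). Whether *Cacnb1* and *Cacng1* in Sol were called depended on the test: *Cacnb1* passed under 6 of the 10 other settings (adjusted p 0.00136 to 0.146 over all 10) and *Cacng1* under 5 (0.00497 to 0.0943). The 5 for *Cacng1* include the replicate block, whose numbers did not pair WT with LSD1-mKO libraries. Of the 8 fits that left out a library, 1 called *Cacng1*, that without LSD1-mKO Sol 4 (adjusted p 0.0351, edgeR), and its adjusted p ran up to 0.237 without WT Sol 3, with log2 fold changes of 0.91 to 1.25. *Cacnb1* was called in 0 of them, with adjusted p of 0.0672 to 0.233.

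*Cacna1s*, the pore and voltage sensor of the same channel (chromosome 1, 136052750 to 136119822, plus strand), was the most abundant of the 8 transcripts. It had 1203, 865 and 1304 CPM in WT Sol and 1390, 1723, 1603, 1268 and 1675 CPM in LSD1-mKO Sol. The log2 fold change in Sol was 0.44 (SE 0.184, 95% interval 0.03 to 0.84, adjusted p 0.284, edgeR), and LSD1-mKO Sol 4 fell within the WT range. Without WT Sol 2 it was 0.29 (adjusted p 0.458, edgeR). In Gas the values were 1877, 1841 and 797 CPM in WT and 1760, 1747, 1468, 1786 and 1477 CPM in LSD1-mKO. WT Gas 3 set the low WT value, and the log2 fold change of 0.13 (95% interval -0.50 to 0.76) became -0.16 without that library. The accessory subunits were also set against the pore gene in each library. The ratio of *Cacng1* to *Cacna1s* per kilobase of exon was 0.379 ± 0.162 in WT Sol (SD, n = 3) and 0.565 ± 0.208 in LSD1-mKO Sol (SD, n = 5), with overlapping ranges of 0.255 to 0.563 and 0.387 to 0.915. That of *Cacnb1* to *Cacna1s* was 0.162 ± 0.0531 and 0.179 ± 0.0202, so that neither ratio separated the genotypes.

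Of the sodium channel subunits, the pore gene *Scn4a* did not differ between the genotypes beyond the spread of the libraries, and its accessory gene *Scn4b* had lower values in LSD1-mKO Sol. *Scn4b* encodes the beta-4 subunit, which is bound to the pore subunit and tunes its gating (chromosome 9, 45138395 to 45154152, plus strand). Its levels in Sol were 417, 407 and 469 CPM in WT and 216, 229, 247, 333 and 364 CPM in LSD1-mKO. The highest LSD1-mKO library stayed below the lowest WT library, with a log2 fold change of -0.65 (SE 0.188, 95% interval -1.06 to -0.23, adjusted p 0.13, edgeR). It passed the threshold under 4 of the 10 other settings, among them DESeq2 (adjusted p 0.0364), and the adjusted p over the 10 ran from 0.0242 to 0.251. Another of the 4 was the replicate block (log2 fold change -0.91, adjusted p 0.0389, edgeR), whose numbers did not pair WT with LSD1-mKO libraries. In Gas, WT had 364, 331 and 203 CPM and LSD1-mKO 273, 250, 174, 320 and 276 CPM. The log2 fold change there was -0.21 (SE 0.256, 95% interval -0.78 to 0.36), and the ranges overlapped. It was -0.42 without WT Gas 3 and -0.042 without WT Gas 1, called in neither fit.

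*Scn4a* (chromosome 11, 106318592 to 106353288, minus strand) had 403, 191 and 337 CPM in WT Sol and 304, 284, 357, 277 and 293 CPM in LSD1-mKO Sol. The LSD1-mKO libraries all lay within the WT range, and the log2 fold change was -0.04 (SE 0.209, 95% interval -0.50 to 0.42), or -0.29 without WT Sol 2. In Gas it had 343, 362 and 83.3 CPM in WT and 362, 374, 357, 348 and 228 CPM in LSD1-mKO. Apart from WT Gas 3 and LSD1-mKO Gas 5, the Gas libraries with the most negative slopes on transcript length (-0.35 and -0.20), the values ran from 343 to 374 CPM. The part of these slopes in the low values was not tested. The log2 fold change in Gas was 0.34 (95% interval -0.56 to 1.25) and -0.07 without WT Gas 3. The ratio of *Scn4b* to *Scn4a* per kilobase was 2.15 ± 0.791 in WT Sol and 1.31 ± 0.383 in LSD1-mKO Sol, with ranges of 1.46 to 3.01 and 0.976 to 1.76.

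The genes of the resting conductances did not pass the test in either muscle. *Clcn1* (chromosome 6, 42286685 to 42315756, plus strand), whose loss of function causes myotonia, ran from 35.5 to 61.3 CPM in WT Sol and from 28.1 to 52.7 CPM in LSD1-mKO Sol. This gave a log2 fold change of -0.37 (SE 0.211, 95% interval -0.83 to 0.10), or -0.55 without WT Sol 2 (adjusted p 0.263, edgeR). In Gas *Clcn1* had 88.0, 84.4 and 17.1 CPM in WT and 49.0 to 79.0 CPM in LSD1-mKO. With WT Gas 3 the log2 fold change was -0.04 (95% interval -0.99 to 0.91), and without it -0.48 (adjusted p 0.702, edgeR). *Clcn1* overlaps *Fam131b* in the annotation, and the strand option of the counting is not stated, so reads of the shared part may have been left out.

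*Kcnj2* (chromosome 11, 111066164 to 111076821, plus strand), mutated in a periodic paralysis, had 137, 78.5 and 124 CPM in WT Sol and 54.4 to 112 CPM in LSD1-mKO Sol. The ranges overlapped, and the log2 fold change was -0.36 (SE 0.241, 95% interval -0.89 to 0.17), or -0.56 without WT Sol 2 (adjusted p 0.324, edgeR). In Gas it was the most variable of the 8 genes in LSD1-mKO, with 31.1, 85.8, 134, 65.0 and 51.1 CPM and a coefficient of variation of 53.7%. WT Gas had 49.6 to 92.5 CPM, and the log2 fold change was -0.02 (95% interval -0.92 to 0.89), an interval that leaves room for a change of either sign. Without WT Gas 3 it was -0.22. The differences of the effect between the muscles for *Scn4a*, *Scn4b*, *Clcn1*, *Kcnj2* and *Cacna1s* were -0.38, -0.42, -0.31, -0.34 and 0.32, none of them called. Without WT Gas 3 they were 0.045, -0.21, 0.13, -0.12 and 0.62, and again none was called.

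**Figure D3:**
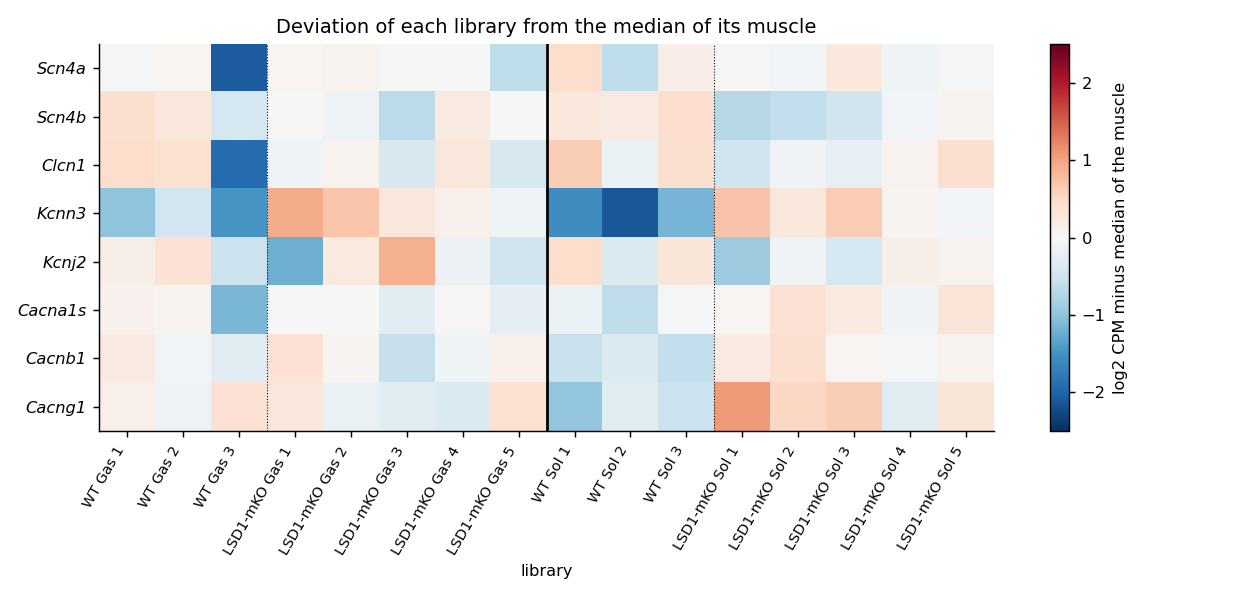
Log2 CPM of each channel gene in every library minus the median of the 8 libraries of the same muscle, from blue (lower) to red (higher). Thick and dotted lines part the muscles and the genotypes. WT Gas 3 is low for *Scn4a*, *Clcn1*, *Kcnn3* and *Cacna1s*, and the 3 WT Sol libraries are low for *Kcnn3*, *Cacnb1* and *Cacng1*.

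The muscles were then compared within each genotype, with the limit that each muscle has its own count table, so muscle and table cannot be told apart. *Kcnn3* was higher and *Cacng1* lower in Sol than in Gas in both genotypes, and the other 6 genes were not called. In WT, 17% of all genes tested were called (8.75% higher and 8.25% lower in Sol), and in LSD1-mKO 24.5% (12.9% higher and 11.6% lower). *Kcnn3* was 2.32-fold higher in Sol in WT (log2 fold change 1.21, SE 0.369, adjusted p 0.0324, edgeR) and 3.47-fold higher in LSD1-mKO (1.79, SE 0.247, adjusted p 6.16e-05, edgeR). Both pairs of groups were without overlap, as for 30.3% of all genes in WT and 20.9% in LSD1-mKO. *Cacng1* was 3.68-fold lower in Sol in WT (log2 fold change -1.88, SE 0.303, adjusted p 0.000466, edgeR) and 1.57-fold lower in LSD1-mKO (-0.65, SE 0.228, adjusted p 0.0457, edgeR), where the muscles overlapped. With the replicate number as a block, *Cacng1* in LSD1-mKO had an adjusted p of 0.0272 and *Kcnn3* one of 0.000276 (edgeR), and both calls were kept.

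Not all of these calls were stable. The WT call of *Kcnn3* was lost without WT Gas 1, WT Gas 3, WT Sol 1 or WT Sol 3 (adjusted p 0.0894, 0.104, 0.096 and 0.162, edgeR), and that of *Cacng1* in LSD1-mKO in 9 of 16 fits without a library, which left adjusted p values of 0.0105 to 0.114. Those 9 fits were without WT Gas 1, WT Sol 3, LSD1-mKO Gas 1, 2 or 5, or LSD1-mKO Sol 2, 3, 4 or 5. The calls of *Cacng1* in WT and of *Kcnn3* in LSD1-mKO were kept in all 16 such fits. Ribosomal protein genes differed between the muscles as well, with 7.17 to 8.60 in Gas and 6.48 to 7.33 in Sol on the log2 CPM scale. Of the Sol libraries, WT Sol 2 alone reached the Gas range, so a fit with this level as a covariate can hardly tell muscle and covariate apart. With that level as a covariate, *Kcnn3* in WT (log2 fold change 0.65, adjusted p 0.373, edgeR) and *Cacng1* in LSD1-mKO (-0.30, adjusted p 0.353, edgeR) were no longer called. The same covariate gave 3 further calls in each genotype, all lower in Sol. In WT these were *Scn4a* (-0.89, adjusted p 0.0201, edgeR), whose direction reversed, *Clcn1* (-1.34, adjusted p 0.0181, edgeR) and *Cacna1s* (-1.01, adjusted p 0.0112, edgeR). In LSD1-mKO they were *Scn4a* (-0.88, adjusted p 0.00155, edgeR), *Clcn1* (-1.37, adjusted p 0.00136, edgeR) and *Cacna1s* (-0.49, adjusted p 0.0495, edgeR). Fast fiber markers summed to at least 81391 CPM in each Gas library and at most 32499 CPM in each Sol library, and the part of fiber type in these differences was not tested.

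**Figure D4:**
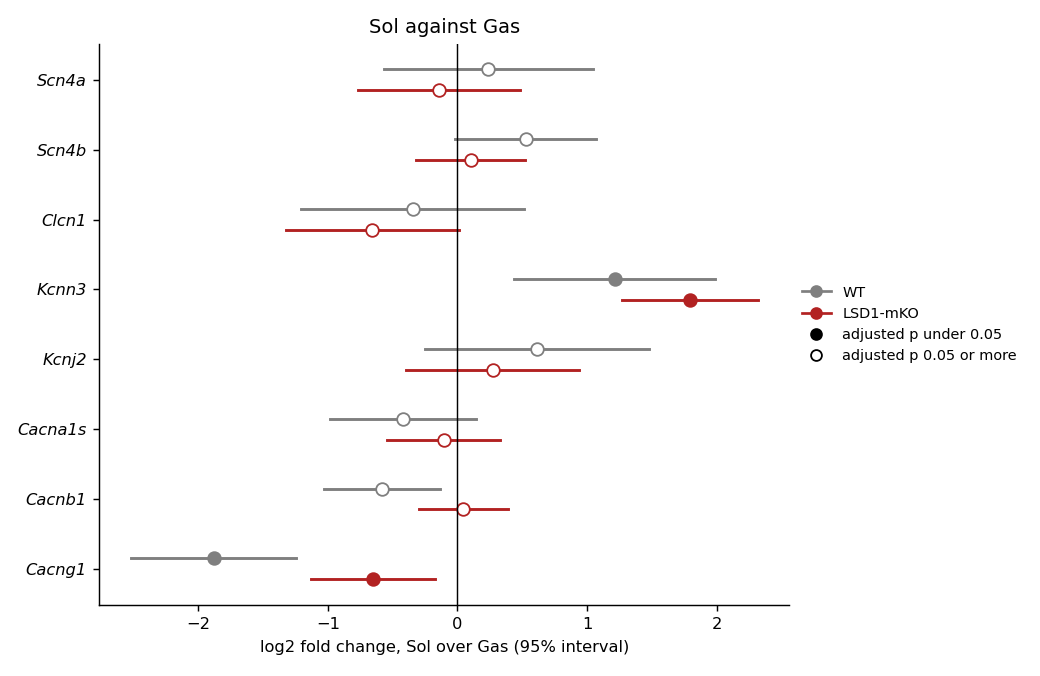
Log2 fold change of Sol over Gas for each channel gene in WT (grey) and LSD1-mKO (red), with 95% intervals from the quasi-likelihood fit over the 16 libraries. Filled points pass the adjusted threshold: *Kcnn3* above 0 and *Cacng1* below 0 in both genotypes, with *Cacng1* at -1.88 in WT and -0.65 in LSD1-mKO.

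Of the other genes, *Scn4b* in WT was without overlap between the muscles (203 to 364 CPM in Gas and 407 to 469 CPM in Sol, log2 fold change 0.53, SE 0.259, adjusted p 0.173, edgeR). *Cacnb1* in WT was without overlap in the other direction (-0.58, SE 0.212, adjusted p 0.0694, edgeR), and in LSD1-mKO the log2 fold change was 0.04 (95% interval -0.30 to 0.39). Without WT Gas 3 and WT Sol 2 together, *Cacnb1* (-0.79, adjusted p 0.0371, edgeR) and *Cacna1s* (-0.59, adjusted p 0.0481, edgeR) were called lower in WT Sol, and *Clcn1* (-0.68, adjusted p 0.00672, edgeR) in LSD1-mKO Sol. With all libraries, *Clcn1* had log2 fold changes of -0.34 in WT and -0.66 in LSD1-mKO (adjusted p 0.598 and 0.142, edgeR). The WT libraries of *Scn4a*, *Kcnj2* and *Cacna1s* overlapped between the muscles, with log2 fold changes of 0.24, 0.61 and -0.42. Without WT Gas 3 these were -0.21, 0.37 and -0.75, and *Cacna1s* was called (adjusted p 0.0202, edgeR).

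Levels of different genes were compared per kilobase of exon (RPKM), without a test. In WT Gas, *Cacna1s* and *Cacng1* came first with 230 ± 93.7 and 227 ± 38.8 RPKM (SD, n = 3), and their ranges overlapped. *Scn4b* (60.1 RPKM), *Cacnb1* (39.6) and *Scn4a* (37.3) followed, then *Kcnj2* (13.6) and *Clcn1* (11.6), each overlapping with the next. *Kcnn3* was far below with 0.0790 ± 0.0268 RPKM and overlapped with no other gene. In WT Sol, *Cacna1s* (172 RPKM) stood above *Scn4b* (86.5), and *Scn4b* above *Cacng1* (61.5), each without overlap. *Scn4a* (44.1), *Cacnb1* (26.5) and *Kcnj2* (20.8) came next and overlapped in turn, and *Clcn1* (9.20) and *Kcnn3* (0.189) stood apart below them. In LSD1-mKO Sol, *Cacng1* (131 RPKM) came before *Scn4b* (55.7) without overlap, which was the order of both Gas groups. *Kcnn3* reached 0.711 ± 0.170 RPKM there (SD, n = 5) and was still the lowest of the 8. The order depends in part on the length used. With the longest transcript (3545 bases) in place of all exons (5428 bases), *Clcn1* was 17.8 RPKM in WT Gas, above *Kcnj2* (13.6). With longest transcripts *Cacnb1* was 52.8 RPKM in WT Gas. In LSD1-mKO Gas it was 53.7 RPKM, above *Scn4b* (51.9) and *Scn4a* (50.6).

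**Figure D5:**
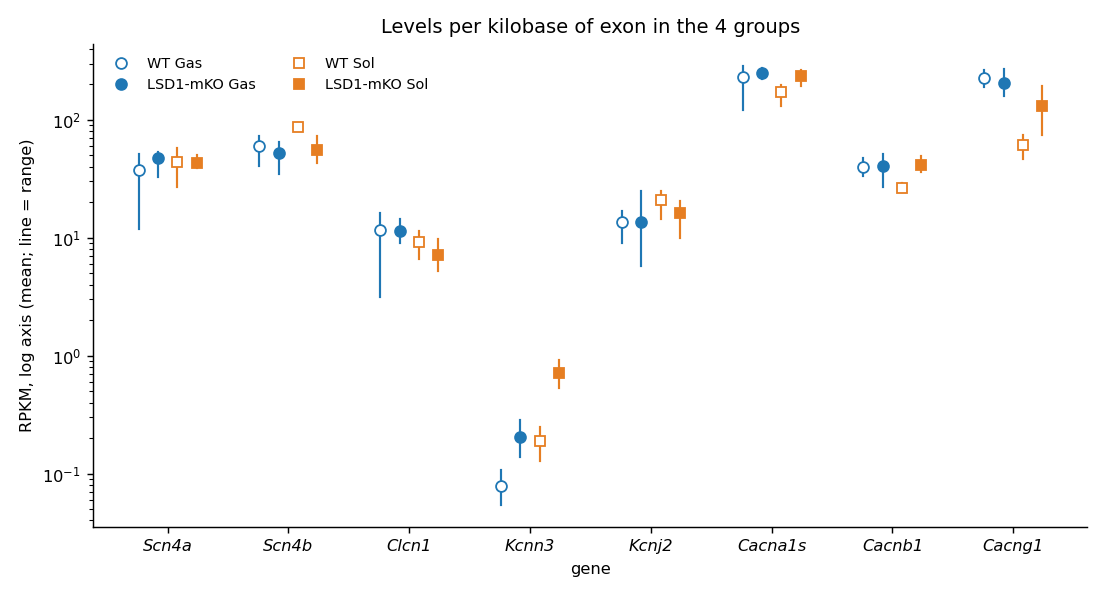
Mean level of each channel gene per kilobase of exon in the 4 groups, on a log axis, with lines from the lowest to the highest library. *Cacna1s* leads in each group, *Kcnn3* is the lowest in each group, and *Cacng1* has the widest gap between WT Gas (227 RPKM) and WT Sol (61.5 RPKM) among the genes above 1 RPKM.

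Channel and pump genes that were not among the 8 were counted from lists. Of 4 other sodium channel genes, 1 was called in Sol, where 0.967% of all genes were, and 0 in Gas, where 0.0307% were. This was *Scn3b*, a beta subunit of neuronal sodium channels, which had 8.55, 5.97 and 8.80 CPM in WT Sol and 23.5 to 27.5 CPM in LSD1-mKO Sol (log2 fold change 1.65, SE 0.157, adjusted p 0.000942, edgeR). The median of the list was 0.84 in Sol and 0.28 in Gas.

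Of 18 other potassium channel genes, 0 were called in Gas (0.0307% of all genes), and the medians were 0.20 in Sol and 0.05 in Gas. *Kcna7* was lowest in Sol (-0.47) and *Kcnab1* lowest in Gas (-1.56), neither of them called. The other genes of the SK and related family, *Kcnn1*, *Kcnn2* and *Kcnn4*, had log2 fold changes of -0.28, 0.39 and 0.40 in Sol and were not called. Their difference from *Kcnn3* was not tested. Of 7 other voltage-gated calcium channel genes, 0 were called in either muscle (0.967% of all genes in Sol and 0.0307% in Gas). *Cacna2d1*, the alpha-2/delta partner of *Cacna1s*, was lowest in both (-0.75 in Sol and -0.80 in Gas) and *Cacnb3* highest in both (0.62 and 0.48). The medians of these 7 genes were 0.24 in Sol and -0.13 in Gas.

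Of 5 sodium-potassium pump genes, 1 was called in Sol (0.967% of all genes). *Atp1b2*, a beta subunit of the pump, had 19.4, 23.8 and 24.1 CPM in WT Sol and 36.3 to 44.4 CPM in LSD1-mKO Sol (log2 fold change 0.87, SE 0.134, adjusted p 0.0156, edgeR). *Atp1b1* was lowest in Sol (-0.12), and in Gas the list ran from -0.08 for *Fxyd1* to 0.62 for *Atp1b2*, with 0 called (0.0307% of all genes). Of 9 triad coupling genes, 0 were called in either muscle (0.967% of all genes in Sol and 0.0307% in Gas). They ran from -1.02 for *Trdn* to 0.20 for *Bin1* in Sol and from -1.64 for *Trdn* to 0.27 for *Ryr1* in Gas, with medians of -0.19 and -0.58. *Trdn* encodes triadin, which anchors the release complex.

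The list of 15 denervation response genes had 2 called higher and 1 called lower in Sol (0.787% and 0.18% of all genes), with a median of 0.92, and 0 of 14 tested were called in Gas (0.0307% of all genes), with a median of 1.06. Called higher were the acetylcholine receptor subunits *Chrnb1* (1.65, SE 0.137, adjusted p 0.000564, edgeR) and *Chrnd* (1.07, SE 0.221, adjusted p 0.049, edgeR), and called lower was the corepressor *Dach2* (-3.74, SE 0.739, adjusted p 0.0412, edgeR). *Dach2* is known to fall on denervation, as *Chrnb1* and *Chrnd* are known to rise. Of the list, 12 genes had log2 fold changes above 0 and 3 below 0 in Sol, and 13 and 1 in Gas. Mean levels of *Musk* (69.2 CPM in WT Sol and 63.3 CPM in LSD1-mKO Sol) and *Gadd45a* (8.85 and 8.44 CPM) were no higher in LSD1-mKO Sol. Whether the muscles were denervated was not tested. *Chrng* was highest in Sol (4.18, not called) and *Chrna1* highest in Gas (2.68, not called), where *Dach2* was lowest (-3.91, not called). The value of *Chrng* rests on very few reads in WT Sol (0.0702 to 0.116 CPM) and on a wide spread in LSD1-mKO Sol (0.531 to 5.42 CPM). The difference of the effect between the muscles was called for 0 genes of any of these lists, and for 0% of all genes.

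Between the muscles, more of these genes were called, as were more of all genes tested (17% in WT and 24.5% in LSD1-mKO). In WT, *Scn3b* (1.31), *Kcnma1* (1.58) and *Atp1b1* (2.16) were among the genes higher in Sol, and *Kcnj12* (-1.07), *Abcc8* (-2.79), *Kcnc4* (-2.19), *Kcnab1* (-1.70), *Cacng7* (-1.55) and *Atp1b2* (-3.17) among those lower, as log2 fold changes of Sol over Gas. *Kcnj12* encodes Kir2.2, the partner of Kir2.1, and *Abcc8* the sulfonylurea receptor of the ATP-sensitive potassium channel. In LSD1-mKO, *Scn3b* (2.49), *Kcnma1* (1.26) and *Atp1b1* (1.71) were among the genes higher in Sol, and *Abcc8* (-1.78), *Kcnn1* (-0.48), *Kcnc4* (-2.44), *Cacng7* (-1.09) and *Atp1b2* (-2.90) among those lower. The triad coupling genes had 0 called in either genotype (17% and 24.5% of all genes), and all 9 had log2 fold changes below 0, with medians of -0.64 in WT and -0.35 in LSD1-mKO. The medians of all genes tested were -0.013 in WT and -3.7e-05 in LSD1-mKO. Of the denervation response genes, *Chrna1*, *Chrnd*, *Ncam1*, *Myh3* and *Dach2* were called higher and *Gadd45a* lower in WT Sol. In LSD1-mKO Sol, *Chrnb1*, *Chrnd*, *Chrng*, *Ncam1*, *Myh3* and *Dach2* were among those called higher, and *Chrne* and *Gadd45a* were called lower.

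The patterns of the 8 genes over the 16 libraries were set side by side after the mean of each muscle had been subtracted from log2 CPM, as a description of libraries that share genotype and quality. Of the 28 pairs, 9 had a Pearson r above 0.5 and 5 below -0.5. *Scn4a* varied with *Clcn1* (r = 0.84) and *Cacna1s* (r = 0.82), the genes that were low in WT Gas 3. *Cacnb1* varied with *Cacng1* (r = 0.73), and *Kcnn3* with *Cacna1s* (r = 0.65), *Cacnb1* (r = 0.60) and *Cacng1* (r = 0.53). *Kcnj2* and *Cacng1* varied in opposite directions (r = -0.65), as did *Scn4b* and *Cacng1* (r = -0.62).

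Among 12843 genes tested in both muscles, those most like *Kcnn3* were *Ccdc141* (r = 0.98), *Itga7* (r = 0.95), which encodes the laminin-binding integrin alpha-7 of muscle, and *Tmem62* (r = 0.95). Most like *Cacng1* were *Ctsz*, *Vps25* and *Akip1* (r = 0.94, 0.94 and 0.91), and most like *Cacnb1* were *Ppm1j*, *Gamt* and *Rtkn* (r = 0.94, 0.92 and 0.92). Most like *Cacna1s* were *Man2a2*, *Srl* and *Tgfb3* (r = 0.95, 0.95 and 0.94), of which *Srl* encodes sarcalumenin, a calcium-binding protein of the sarcoplasmic reticulum. *Arhgef11*, *Zfp532* and *Pdpr* were nearest to *Scn4a* (each r = 0.98), *Adck1*, *Vamp1* and *Aldh4a1* to *Scn4b* (r = 0.93, 0.93 and 0.90), *Inppl1*, *Ganc* and *Dapk2* to *Clcn1* (each r = 0.96), and *Ssh2*, *Sox6* and *Azi2* to *Kcnj2* (r = 0.92, 0.91 and 0.89). All of these were taken over the same 16 libraries.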

How the data were processed

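Poly(A) libraries from Gas and Sol were sequenced with single-end reads on a NextSeq sequencer. Alignment by the authors used STAR and mm10, and exon reads were counted by featureCounts 1.5.2 on the iGenomes UCSC annotation, per the file headers. The deposited tables hold raw counts of 24421 genes per muscle, and 0 columns belonged to other samples. Tables of the authors' own comparisons were deposited too (fold changes and p-values) and were not used.

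Counts were tested with edgeR 4.0.16 in R 4.3.3: filterByExpr with a minimum count of 10, TMM, the two-sided quasi-likelihood F-test and Benjamini-Hochberg adjustment over all genes tested, with adjusted p under 0.05 called. The genotypes were compared within each muscle. The interaction and Sol against Gas came from a fit of 4 groups over the 16 libraries. SEs were derived from the F statistic as log2 fold change over its root. RPKM values were computed from CPM with exon lengths of GENCODE vM21, as a description. Other settings used limma 3.58.1 (voom) and DESeq2 1.42.0. In simulated data with 200 genes changed by 2 on the log2 scale, the test recovered 179 with 8 false calls in Gas (13040 genes), 187 with 10 in Sol (13342 genes) and 133 with 11 for the interaction (13749 genes). The simulation gave each gene a common mean over the libraries apart from that change. The change exceeds every genotype effect of the 8 genes, so the recovery does not speak for effects of their size. Same-numbered Gas and Sol libraries of LSD1-mKO deviated together (r = 0.21 to 0.36, each library nearest to its own number in 5 of 5), so these numbers were taken to pair the LSD1-mKO samples, from the data and the titles. Same-numbered Gas and Sol libraries of WT did not (r = -0.52 to 0.12, nearest to their own number in 0 of 3). The main fits did not use these pairs, and the replicate block between the muscles paired both genotypes by number.

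All 8 channel genes were named in every comparison. From the lists, called genes and the genes with the smallest and largest log2 fold change between genotypes were named, and for each channel gene the 3 genes with the highest r. Some list genes that this rule names are not reported here. *Kcnn1*, *Kcnn2* and *Kcnn4* and the printed promoters were chosen after values were seen. The 8 genes and the lists were chosen with earlier results of these data known. Promoter sequences are from RefSeq (GRCm38.p6).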

Additional observations from a re-analysis of the deposited data

Results flagged for a closer look

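*Scn4a* in LSD1-mKO Gas 5, at 228 CPM, lay far below the other 4 libraries of its group, which had 348 to 374 CPM, so that its gap to the nearest took most of the range of the group. The groups of 5 libraries gave 16 such gaps over the 8 genes, of which 1 was past the 95% critical value, where about 0.8 would be so by chance. The same library had a negative slope of level on transcript length (-0.20) and a ribosomal protein level of 7.97 on the log2 CPM scale, against 7.17 to 7.49 in the other 4, and their part in the low value was not tested. Without this library the log2 fold change of *Scn4a* in Gas was 0.45 in place of 0.34, and was not called in either fit.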

How the results depend on the processing

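Of 392 values of the 8 genes under other settings, 342 kept their direction and their side of the threshold, 31 newly passed it, 3 no longer did and 16 reversed. Of 512 values without a library, 466 kept both, 5 newly passed, 15 no longer did and 26 reversed. Except where a fit has fewer libraries or genes, the cause was not tested. The transcript length offset and the fit without WT Gas 3 and WT Sol 2 together were chosen after seeing the data.

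In Gas, 1 of the 8 genes was called under voom in place of 0. Over all genes 4 were called, with 10 without the low count filter, 132 under DESeq2, 340 under voom, 104 under the exact test and 62 in the fit of all 16 libraries, and 1 to 7 without a library. In Sol, 1 of the 8 was called, with 3 without the filter, 4 under DESeq2, 4 under voom, 2 with the ribosomal protein covariate, 4 under the exact test and 2 with the length offset, and 0 to 2 without a library. Over all genes in Sol 129 were called, with 336, 605, 730, 295, 560 and 199 under these settings in turn, and 11 to 228 without a library. The interaction had 0 calls over all genes, with 21 under DESeq2 and 103 under voom, and 0 to 1 without a library. For Sol against Gas in WT, 2 of the 8 were called, with 5 under voom, 4 with the ribosomal protein covariate, 1 in the fit of WT alone and 4 without both libraries, and 1 to 3 without a library. Over all genes 2337 were called, with 5599 under voom, 1874 with the covariate, 1011 in the fit of WT alone and 2250 without both libraries. The fits without a library called 1132 to 2839. In LSD1-mKO, 2 of the 8 were called, with 4 under the ribosomal protein covariate and 1 to 3 without a library. Over all genes 3367 were called there, and 2618 to 4409 without a library.

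With the replicate block, 3 of the 8 genes and 412 genes in all were called in Sol, and 1 gene in the interaction. Numbers shared by WT and LSD1-mKO did not pair the libraries (r of their deviations -0.16 to 0.31 in Gas and -0.0062 to 0.13 in Sol, with 1 of 3 WT libraries nearest to its own number in each muscle). The block reversed *Clcn1* (0.21) and *Cacnb1* (-0.014) in Gas and *Scn4a* (0.072) in Sol.

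Other reversed log2 fold changes were small or came with the ribosomal protein covariate. In Gas they were *Cacna1s* (-0.077 under voom, -0.068 with the covariate), *Cacnb1* (-0.094 under voom, -0.0048 with the length offset) and *Cacng1* (0.062 with the covariate, 0.11 with the length offset). With the covariate, *Scn4a* in Sol was 0.049, the interactions of *Scn4a* and *Kcnj2* were 0.0074 and 0.085, *Scn4a* and *Kcnj2* in Sol against Gas were -0.89 (called) and -0.29 in WT, and *Scn4b* and *Kcnj2* were -0.069 and -0.21 in LSD1-mKO. Leaving out a library gave, in Gas, *Scn4a* -0.068 to 0.67, *Clcn1* -0.48 to 0.27, *Kcnj2* -0.35 to 0.21, *Cacna1s* -0.16 to 0.33, *Cacnb1* -0.079 to 0.18 and *Cacng1* -0.25 to 0.0025. It gave *Scn4a* in Sol -0.29 to 0.19, the interactions of *Scn4a* -0.68 to 0.045 and of *Clcn1* -0.62 to 0.13, and in Sol against Gas *Scn4a* in WT -0.21 to 0.54 and, in LSD1-mKO, *Scn4b* -0.033 to 0.17 and *Cacnb1* -0.093 to 0.15. Depth limits *Kcnn3* in WT Gas, which rests on 5 to 19 reads.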
